A study of Homo sapiens with 8 samples.

Results

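Solute carriers, ion pumps, ABC transporters and ion channels were taken from 3 tables of poly(A) site usage by gene symbol: all symbols that begin as an SLC, SLCO or ABC family name, as a P-type or V-type ATPase (ATP1, ATP2, ATP6, ATP8, ATP9), or as a KCN, CLCN, CLIC or TRP channel, with the mitochondrial SLC25 carriers left out. This gave 73 of 3656 listed genes and 144 of 7615 listed pairs of poly(A) sites. The symbol rule also took in ATP11B and ATP13A3, and 5 genes that encode no carrier or channel: ABCE1 and ABCF1, which act at the ribosome, the transcription factor SLC2A4RG, the scaffold protein SLC9A3R2, and SLC7A6OS.

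The cells were MDA-MB-231, a line from a triple-negative breast carcinoma of a human donor, carrying dCas9-KRAB, a dead Cas9 fused to a repressor domain that lowers transcription of the gene a guide RNA targets (CRISPR interference). Each of the 8 samples carried a pair of guides, and the 4 groups held 2 replicates each: control (a pair of non-targeting guides), HNRNPC knockdown (KD, 1 HNRNPC guide with 1 non-targeting guide), PABPC4 KD (1 PABPC4 guide with 1 non-targeting guide) and double KD (both targeting guides). Their mRNA ends were read by QuantSeq REV, in which the primer lies on the poly(A) tail. The fusion protein and the line are shared by all comparisons, and every table sets a KD group against the same control.

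Many mRNAs can be cleaved and polyadenylated at more than 1 site, and the choice decides how much of the 3′ untranslated region (UTR), or which last exon, the mRNA keeps. Cleavage is directed by a signal, AAUAAA or a variant, that lies shortly upstream of the cut. HNRNPC is a mainly nuclear protein that binds runs of U, and PABPC4 is a poly(A)-binding protein that moves between nucleus and cytoplasm. Solute carriers move sugars, amino acids, metals and other small molecules across membranes, pumps do so against a gradient at the cost of ATP, and channels let ions flow down their gradients.

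The ends on which the results turn are shown as the last 30 bases of the annotated transcript, read from hg38 at the ends Gencode release 44 gives for the same transcript version, with the poly(A) signal AATAAA or ATTAAA in capitals where it lies in these bases. Those of SLC35E1 are shown because the ends of its called pairs differ in their signals. Those of SLC4A7, CLCN7, SLC2A3, SLC38A2 and SLC38A1 are shown as the distal ends of called or well measured pairs.
SLC35E1 upstream end (ENST00000596387.1): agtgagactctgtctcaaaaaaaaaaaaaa
SLC35E1 middle end (ENST00000409648.8): ataaatgggctatttaattctgtatataaa
SLC35E1 downstream end (ENST00000595753.6): taccaaaAATAAAtgatggtttccagggaa
SLC4A7 downstream end (ENST00000425128.6): gattgagcAATAAAagtctacttaattagt
CLCN7 distal end (ENST00000563642.6): ggttaAATAAAatcagcggttaggattcac
SLC2A3 distal end (ENST00000075120.12): ttttaaAATAAAaattctgaatgtacacga
SLC38A2 distal end (ENST00000256689.10): gaactaaAATAAAtacatgcttaatcctga
SLC38A1 distal end (ENST00000398637.10): ttaaacATTAAAaaatgtgaactaaaagta
The SLC35E1 middle end has its AATAAA starting 31 bases before the end, just outside the bases shown. The SLC35E1 upstream end had no signal in the 40 bases before it and was rich in A, with 14 A in its last 20 bases. Whether reads at this end came from priming on those A was not tested.

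Usage is given as logAPAR, on a natural log scale: the usage of the proximal site over that of the distal site, in KD relative to control. A negative value is a shift towards the distal site (a longer 3′ UTR where both sites lie in 1 last exon) and a positive value a shift towards the proximal site. The threshold was p 0.01, that of the study, in the authors' APAlog test (multinomial logistic regression), and adjusted p-values are Benjamini-Hochberg values over all pairs of a table. A standard error (SE) was taken from each logAPAR and its p-value by the Wald formula. The tables hold no values per library. They listed 5861, 5953 and 6461 pairs for HNRNPC KD, PABPC4 KD and double KD, of which 123, 113 and 113 were member pairs. The table taken as PABPC4 KD was assigned by elimination, since its name mixes the abbreviations of both targets. HNRNPC and PABPC4 were not listed, so their depletion could not be checked here. Of 8 marker genes, the mesenchymal CD44, CAV1 and AXL were listed and VIM and the epithelial EPCAM, CDH1, KRT8 and KRT18 were not, and being listed gives no level.

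Of the 73 genes of this class, 4 had a pair past p 0.01 in some table, a smaller share than over all genes. In double KD, 5 of 113 member pairs in 4 genes passed p 0.01 (4.42%, against 4.33% of all pairs in the table), 3 towards the distal site (2.48% of all pairs) and 2 towards the proximal site (1.86% of all pairs). In PABPC4 KD, 2 of 113 passed (1.77%, against 0.756%), 1 towards the distal site (0.336% of all pairs) and 1 towards the proximal site (0.420% of all pairs). In HNRNPC KD, 1 of 123 passed (0.813%, against 2.08%), towards the proximal site (0.938% of all pairs), and 0 towards the distal site (1.14% of all pairs). The double KD share was thus near that of all pairs, and the single KD shares rest on 1 and 2 pairs. The genes were SLC35E1, SLC4A7, KCNK6 and CLCN7, so that 5.48% of the 73 genes had a pair past the threshold in some table, against 7.99% of all 3656 genes.

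At an adjusted p under 0.05 in the authors' APAlog test, 1 member pair passed in double KD, that of CLCN7 (2.23% of all pairs passed), 0 in HNRNPC KD (0.427% of all pairs) and 0 in PABPC4 KD (0.0168% of all pairs). At an unadjusted p under 0.05 there were 8 member pairs in HNRNPC KD (6.5%, against 6.77% of all pairs), 4 in PABPC4 KD (3.54%, against 4.03%) and 11 in double KD (9.73%, against 9.12%).

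**Figure D1:**
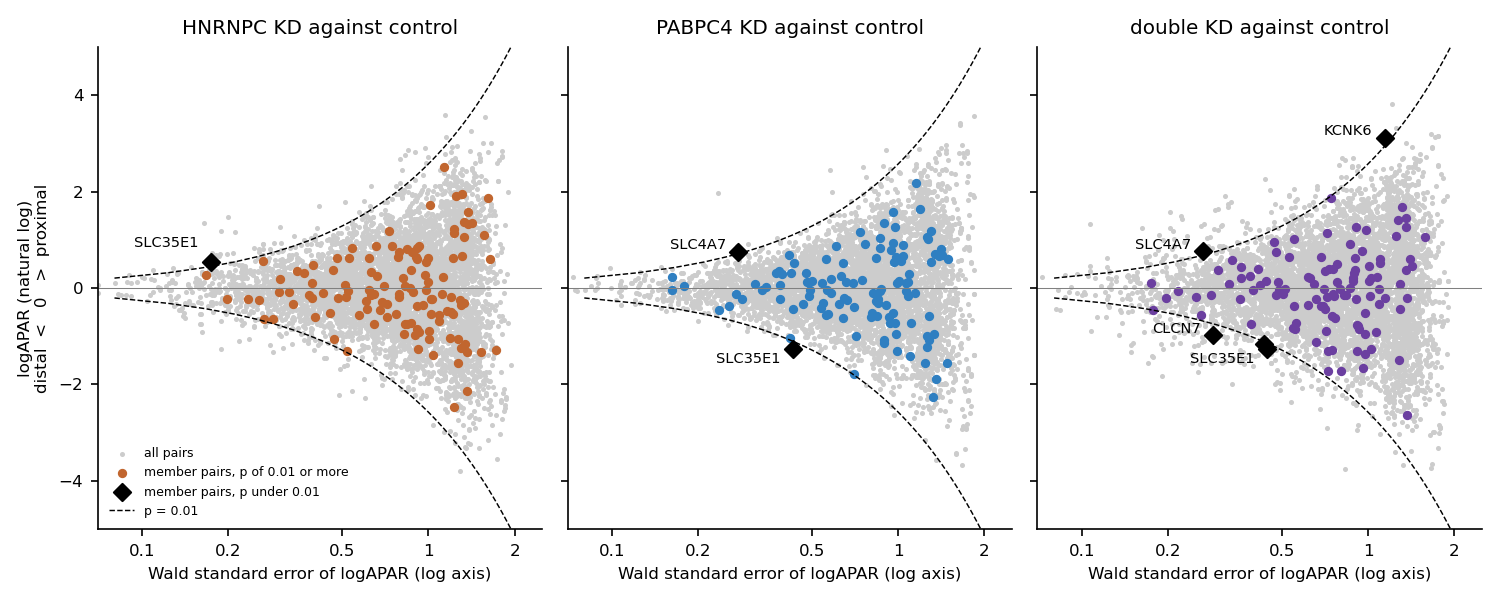
Each point is a pair of poly(A) sites, with its Wald standard error on the x axis (log scale) and its logAPAR on the y axis, for the 3 tables. Grey points are all pairs up to an absolute logAPAR of 5, coloured points member pairs, diamonds member pairs past p 0.01, and dashed lines mark the p 0.01 threshold. Members lie within the cloud of all pairs, and 1, 2 and 5 of them lie beyond the lines.

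Precision set what could be seen. With 1 pair per gene (that of smallest SE), the median SE over member genes in the 3 tables was 0.716, 0.584 and 0.687 (HNRNPC KD, PABPC4 KD, double KD). At these errors a pair needed an absolute logAPAR of 1.84, 1.50 and 1.77, or a 6.32-fold, 4.50-fold and 5.86-fold change of the ratio, to reach p 0.01. At a gene of median precision, smaller changes were not detectable at this depth.

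The depth behind these errors could be recovered for part of the genes. The variance of a pair equals the sum of the inverse normalised reads of both sites in both groups, so at genes with at least 3 sites in all tables the reads of each site and group can be solved. This held at 681 genes with 2253 sites, with a median relative misfit of 9.75e-06, and at 14 member genes with 46 sites. The variances therefore hold counting error alone, and p-values do not cover the spread between replicates. No exact test over samples was possible without values per library. The median member site held 10.4 normalised reads in control and 9.99, 12.4 and 11.7 in the KD groups, in the order of the tables, with the libraries of a group summed. In control the range was from 0.934 to 318 reads.

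The reconstructed values fell on sums of whole reads from a pair of libraries, each read with a fixed weight per library. The weights were 0.827 and 0.933 in control, 0.722 and 0.962 in HNRNPC KD, 0.832 and 0.944 in PABPC4 KD and 0.744 and 0.866 in double KD. Among sites with under 12 normalised reads, 91.7%, 93.8%, 91.4% and 89.4% lay within a relative tolerance of 0.0003 of such a sum. At member sites the split was unique at 26 of 46 sites in control and at 6, 26 and 20 in the KD groups. These low sites held a median of 5, 2, 7 and 7 reads, and in 4, 3, 5 and 2 of them 1 library had no read. Which library is replicate 1 cannot be told, and total depth is unknown.

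**Figure D2:**
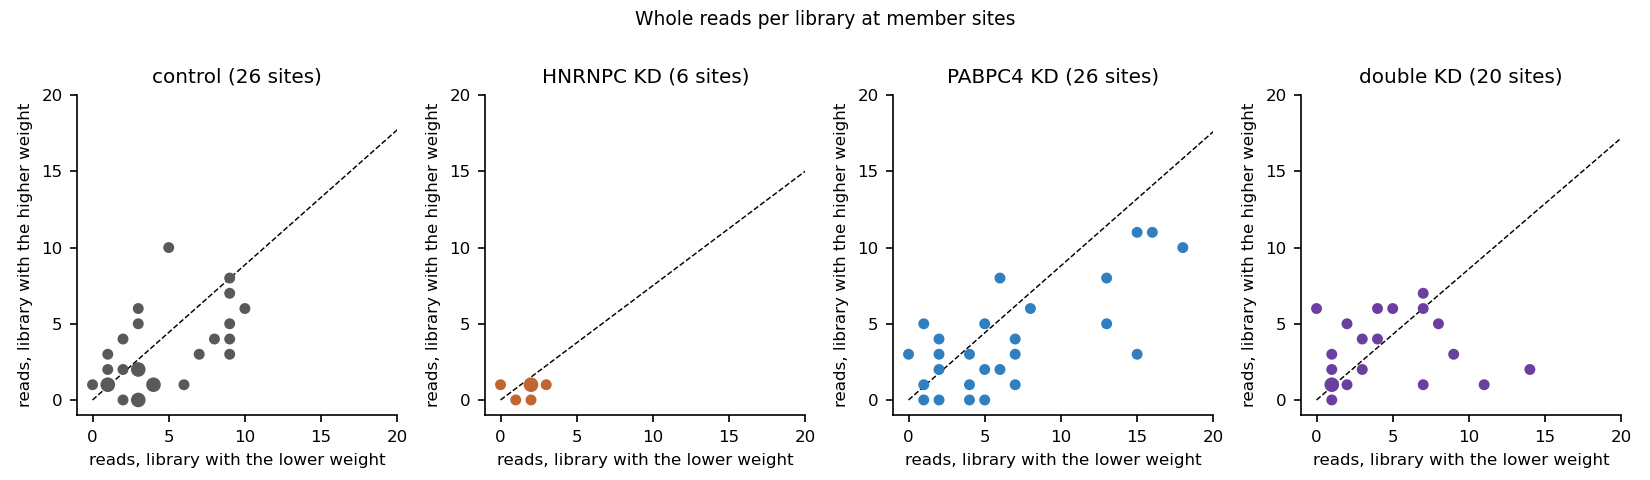
Whole reads at member sites in the library whose reads have the lower weight (x axis) and the higher weight (y axis), for each group. Larger points stand for several sites, and the dashed line marks equal normalised reads. The split was unique at 26, 6, 26 and 20 sites, all of few reads, and the points scatter widely on both sides of the line. In whole reads the library of lower weight held more at 16, 5, 18 and 9 sites and the other at 7, 1, 5 and 7. Equal normalised reads take more whole reads in the library of lower weight, so some lean that way follows from the weights. Its size was not tested.

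SLC35E1, a member of the nucleotide-sugar carrier family whose substrate is not established, had 4 listed sites, of which 3 are transcript ends on chromosome 19. On hg38 the upstream end lies at 16551759, the middle end at 16550850 and the downstream end at 16549837 on the minus strand, all within the last exon of ENST00000595753.6 (16549837 to 16553909). The downstream end belongs to a protein-coding transcript with 3845 bases of 3′ UTR in that exon, the middle end to a transcript annotated for nonsense-mediated decay, and the upstream end to a transcript without a defined coding sequence. The 3 ends are 909 and 1013 nt apart.

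The downstream end of SLC35E1 held 8.08 normalised reads in control, and 13.7, 23.7 and 19.3 in HNRNPC, PABPC4 and double KD. In whole reads these were 3 and 6 in the libraries of control and 16 and 11 in those of PABPC4 KD, so both PABPC4 KD libraries lay above both control libraries. The middle end held 127, 74.6, 105 and 85.7 reads in the same order of groups, and the upstream end 219, 222, 227 and 163. The share of the gene's reads at the downstream end was 2.27% in control and 4.40%, 6.65% and 7.13% in the KD groups.

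From the middle to the downstream end, logAPAR was −1.26 ± 0.428 (SE) in PABPC4 KD (p = 0.00314 in the authors' APAlog test, adjusted p = 0.951) and −1.26 ± 0.442 in double KD (p = 0.00432, adjusted p = 0.135). In HNRNPC KD it was −1.06 ± 0.467, which missed the threshold (p = 0.0235 in the authors' test). From the upstream to the downstream end it was −1.16 ± 0.432 in double KD (p = 0.00711 in the authors' test, adjusted p = 0.184). The downstream end thus gained against both other ends in double KD, from a control level of 9 reads.

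Between the upstream and the middle end, SLC35E1 shifted towards the upstream end in HNRNPC KD, with a logAPAR of 0.54 ± 0.174 (p = 0.00177 in the authors' APAlog test, adjusted p = 0.167), or a 1.72-fold ratio. The pair did not pass in the other tables, with 0.23 ± 0.163 in PABPC4 KD and 0.10 ± 0.174 in double KD. It was the most precise member pair of double KD, with its 95% interval from −0.24 to 0.44.

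SLC4A7, an electroneutral sodium-bicarbonate cotransporter that takes up base, shifted towards its upstream end. The upstream end belongs to a transcript that Gencode marks as incomplete at its 3′ end, so it is no mapped poly(A) site in the annotation. It lies in another last exon than the downstream end, has no poly(A) signal in its last 40 bases and, like the SLC35E1 upstream end, is rich in A over its last 20 bases, and whether its reads came from priming on those A was not tested. The downstream end closes a protein-coding last exon on chromosome 3 (27372721 to 27376845 on hg38, minus strand) with 4046 bases of 3′ UTR. The downstream end held 49.9 normalised reads in control and 26.9, 22.9 and 25.9 in HNRNPC KD, PABPC4 KD and double KD, while the upstream end held 160, 151, 156 and 180. The 3 KD groups thus lay at like levels below control at the downstream end, and its share of the gene's reads was 23.1% in control against 14.6%, 12.2% and 12.1%. In PABPC4 KD the split at the downstream end was 15 and 11 whole reads.

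The logAPAR of SLC4A7 was 0.76 ± 0.276 in PABPC4 KD (p = 0.00621 in the authors' APAlog test, adjusted p = 0.951) and 0.77 ± 0.265 in double KD (p = 0.00370, adjusted p = 0.124), ratios of 2.13-fold and 2.16-fold. In HNRNPC KD it was 0.55 ± 0.265, which did not pass (p = 0.0360 in the authors' test). The other 2 listed sites of the gene held from 2.59 to 5.70 reads in any group.

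**Figure D3:**
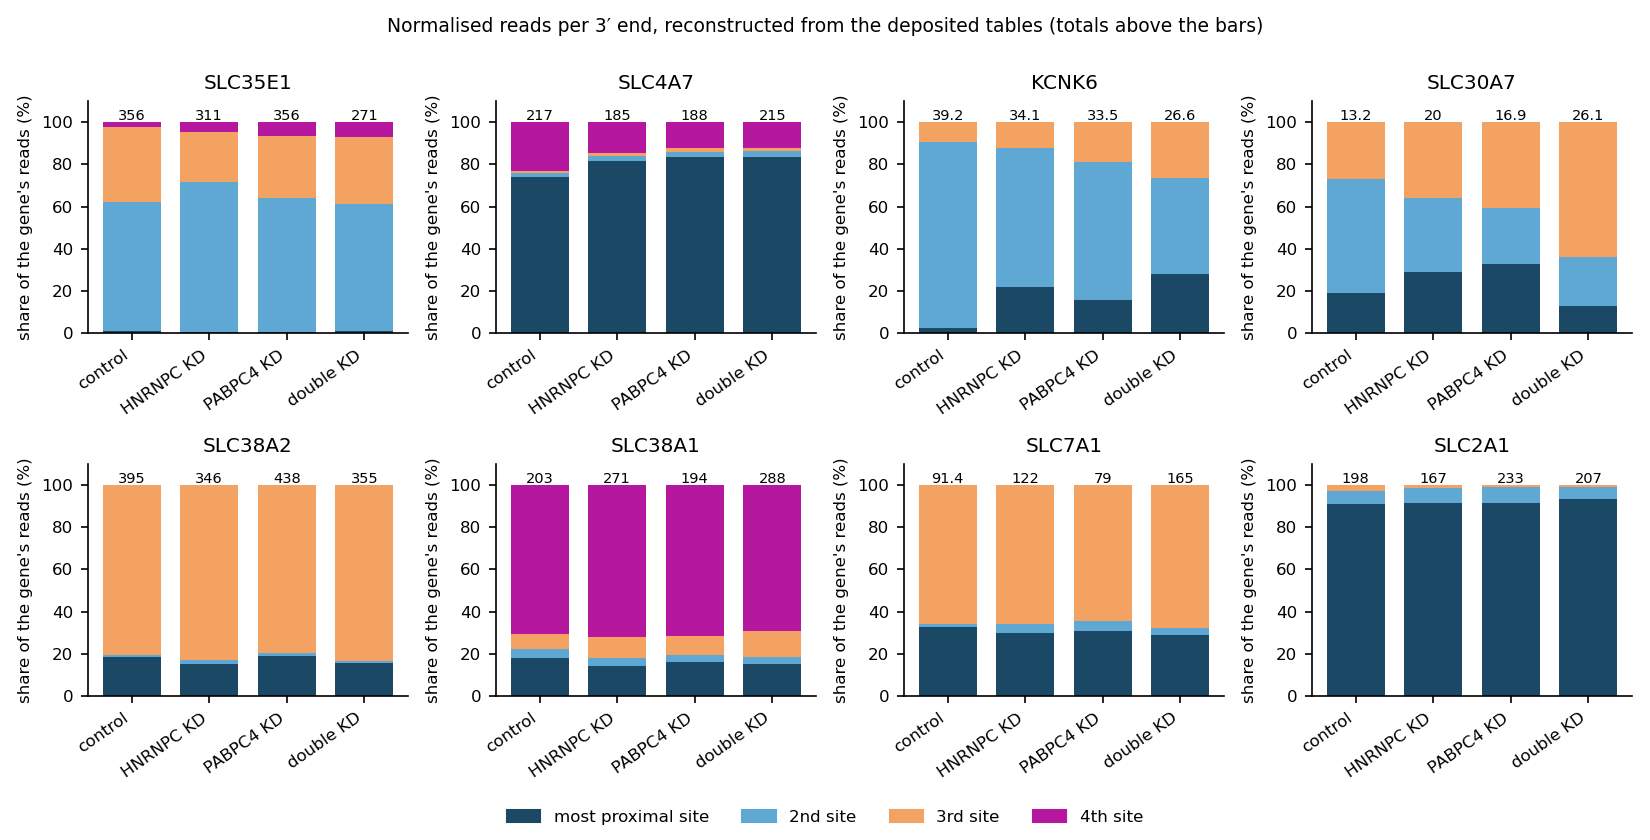
Share of a gene's reconstructed reads (%) at each listed site, ordered from the most proximal, in the 4 groups, with the gene's total normalised reads above each bar. For SLC35E1 the last 3 sites are the upstream, middle and downstream ends. The last site of SLC35E1 rose from 2.27% to 7.13% and that of SLC4A7 fell from 23.1% to 12.1% between control and double KD.

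KCNK6, a tandem-pore-domain potassium channel that passes background current, had the largest called value, and its control level was 1 read. The called pair joins its sites at positions 38819192 and 38821281 of chromosome 19 (their build is not named in the tables), which are 2089 nt apart. The latter is not its most distal site, since the transcript end ENST00000263372.5 is listed beyond it. The proximal site held 0.934 normalised reads in control, which is 0 and 1 whole reads in its libraries, and 7.45, 5.21 and 7.42 in the KD groups. The distal site of the called pair held 34.6 reads in control and 22.6, 22.1 and 12.1 in the KD groups, in double KD as 14 and 2 whole reads. The libraries of double KD thus differed widely at this site. The transcript end held 3.63 reads in control and 4.09, 6.27 and 7.06 in the KD groups. Its share of the gene's reads was 9.26% in control and 26.5% in double KD. From position 38821281 to the transcript end logAPAR was −1.71 ± 0.727 in double KD (p = 0.0184 in the authors' APAlog test). That is a shift towards the more distal end, and it missed the threshold.

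The logAPAR of the called KCNK6 pair was 3.12 ± 1.15 in double KD (p = 0.00654 in the authors' APAlog test, adjusted p = 0.174), with a 95% interval from 0.87 to 5.37. It was 2.51 ± 1.13 in HNRNPC KD and 2.17 ± 1.16 in PABPC4 KD, neither past the threshold. All 3 values divide by the same single control read.

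CLCN7, the chloride-proton exchanger of lysosomes, shifted towards its distal site. This distal site is the end of a retained-intron transcript (ENST00000563642.6, last exon 1444934 to 1446717 of chromosome 16 on hg38, minus strand), and the proximal site is named by position 1495341 in the unnamed build. The distal site is also the 3′ boundary of the annotated gene (1444934 to 1475077), so reads there need not come from that transcript. In double KD logAPAR was −0.97 ± 0.287 (p = 0.000683 in the authors' APAlog test, adjusted p = 0.0345), or 0.377 times the control ratio. It was −0.65 ± 0.287 in HNRNPC KD and −0.23 ± 0.284 in PABPC4 KD, neither past the threshold. With 2 sites the reads cannot be solved, but the errors require at least 12.1 normalised reads at each site in both control and double KD.

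The other chloride channel genes did not pass. CLCN3, an endosomal exchanger, had 12.8% of its reads at its site 170641290 in control and 12.7% in double KD. That site is where 1 library of double KD had 11 reads and the other 1. With 1 pair per gene (that of smallest SE), the 3 genes of this group, CLIC4 included, had values from −0.97 to −0.05 in double KD, where 50.2% of all genes lay below 0. Other pairs of CLCN3 reached from −1.50 ± 1.28 to 1.45 ± 1.35.

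SLC2A3, the glucose transporter GLUT3, had its proximal site at position 8072023 of chromosome 12 (unnamed build) and its distal site at the end of the last exon (7919230 to 7921631 on hg38, minus strand), which carries 2186 bases of 3′ UTR. Its logAPAR was 0.27 ± 0.168 in HNRNPC KD, −0.05 ± 0.162 with the PABPC4 guide alone and −0.45 ± 0.177 in double KD (p = 0.0118 in the authors' APAlog test, adjusted p = 0.264). The errors require at least 31.9 reads at each site. The double KD value missed the threshold.

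Setting double KD against HNRNPC KD asks what adding the PABPC4 guide changed, and the control then cancels. At the 95 member pairs that all tables list, SLC2A3 was the 1 pair past p 0.01 by the Wald test (against 1.56% of all 4692 pairs), with a difference of −0.72 (95% Wald interval −1.20 to −0.24). It did not pass an adjusted p of 0.05. This error adds the variances of both tables and is an upper bound, since it counts the shared control as noise. At p under 0.05 there were 2 such pairs (2.11%, against 3.22%), the other at SLC35E3, a little-studied member of the nucleotide-sugar carrier family, with 1.97 (95% interval 0.03 to 3.91).

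Setting double KD against PABPC4 KD asks the same of the HNRNPC guide, and 0 of 95 member pairs passed p 0.01 by the Wald test (against 1.90% of all pairs), with 2 pairs under p 0.05 (2.11%, against 4.80%). These were ATP13A3, a polyamine transporter, at 2.42 (95% interval 0.49 to 4.34) and ABCC3, an exporter of organic anions, at −1.82 (95% interval −3.48 to −0.17). CLCN7 differed by −0.75 (95% interval −1.54 to 0.04), and did not pass. These results turn on the error: with an assumed share of the control removed from it, CLCN7 and ATP13A3 passed p 0.01, or 2 of 95 member pairs (2.11%, against 4.94% of all pairs). This share takes control and KD to have like reads. The control reads of CLCN7 and ATP13A3 cannot be solved, so it could not be checked there.

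Double KD was also set against the added values of both single KDs, and this departure passed p 0.01 at 0 of 95 member pairs by the Wald test (against 1.04% of all pairs), with 4 pairs under p 0.05 (4.21%, against 3.37%). These were SLC2A3, at −0.67 (95% interval −1.25 to −0.10), the upstream and middle ends of SLC35E1, at −0.67 (−1.25 to −0.09), ATP13A3, at 2.45 (0.17 to 4.73), and SLC35E3, at 2.30 (0.01 to 4.59). For SLC35E1 the reconstructed reads give the error without the upper bound, and the departure then had an SE of 0.249 and a 95% interval from −1.16 to −0.18, past p 0.01 and not past an adjusted p of 0.05.

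**Figure D4:**
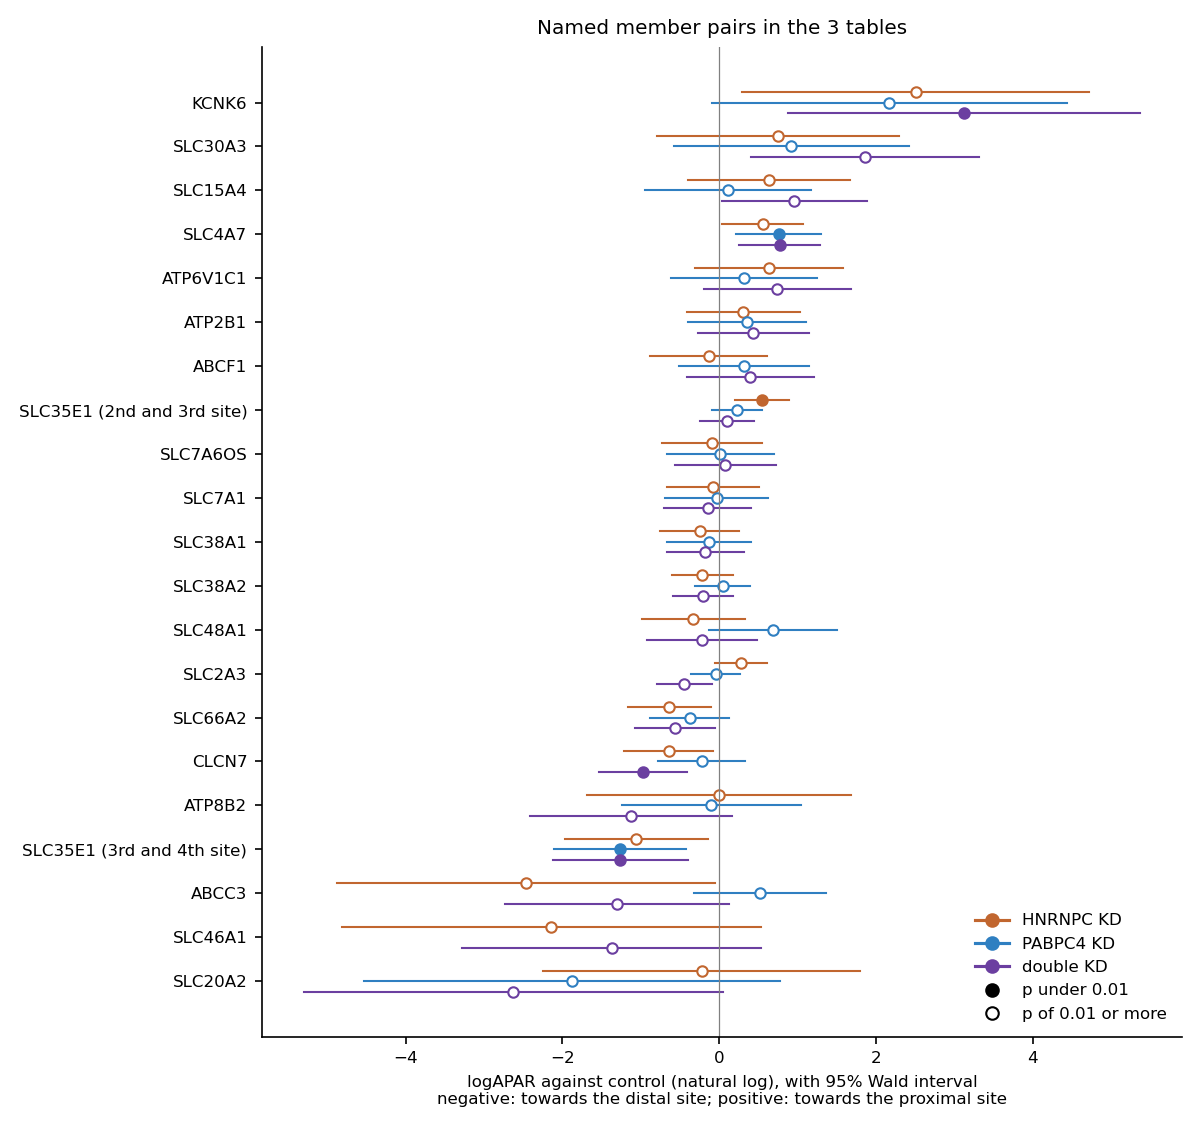
logAPAR against control (x axis) of the named member pairs in the 3 tables, with 95% Wald intervals and filled points for p under 0.01. The SLC35E1 pairs are the upstream and middle ends (upper row) and the middle and downstream ends (lower row). Intervals of SLC38A2, SLC38A1 and SLC7A1 include 0 in all 3 tables, and those of KCNK6, SLC20A2 and SLC46A1 are several units wide.

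Among the best measured genes were the amino acid carriers, and none of their pairs passed the threshold. SLC38A2, a sodium-coupled carrier of small neutral amino acids, held 318, 288, 349 and 296 normalised reads at its distal end in control, HNRNPC KD, PABPC4 KD and double KD, and 72.6, 52.9, 83.4 and 54.9 at its main proximal site. Its logAPAR in double KD was −0.21 ± 0.196, with a 95% interval from −0.59 to 0.18. SLC38A1, a carrier of the same kind, had −0.18 ± 0.250 (interval −0.67 to 0.31), and SLC7A1, the carrier of arginine and lysine, had −0.15 ± 0.283 (interval −0.70 to 0.41). SLC66A2, whose distal end closes a retained-intron transcript, lay below 0 in the 3 tables, with −0.64 ± 0.267 in HNRNPC KD, −0.37 ± 0.257 with the PABPC4 guide alone and −0.56 ± 0.261 in double KD, and did not pass p 0.01.

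The amino acid carrier group was set by gene symbol and includes SLC66A2. Values of all 7 of its genes listed in double KD lay below 0, from −1.30 to −0.15 with a median of −0.56, and 0 of them passed the threshold. Each gene stands here with its pair of smallest SE, and other pairs of SLC38A1 and SLC7A1 lay above 0, at 0.58 ± 0.335 and 0.62 ± 0.897. In each single KD 6 of 8 lay below 0, with medians of −0.23 and −0.11. Over all genes 50.2% lay below 0 in double KD. Other roles of like size also leaned to 1 side there: 7 of 8 genes of the nucleotide-sugar carrier role lay above 0 and 7 of 9 metal carriers below it. SLC35E1 counts as above 0 by its pair of smallest SE, at 0.10, while both of its called pairs in double KD lay below 0, at −1.26 and −1.16.

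Sugar carriers were further represented by SLC2A1 (GLUT1), where 91.2% of the reads in control and 93.4% in double KD lay at its most proximal site, with 180 and 193 reads there. The transcript end of SLC2A1 held 5.39 reads in control and 2.41, 1.66 and 1.61 in the KD groups, so that changes there rest on a few reads.

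Metal carriers had 9 genes and 0 pairs past the threshold. SLC30A3, which loads vesicles with zinc, had 1.86 ± 0.745 in double KD (p = 0.0126 in the authors' test, adjusted p = 0.272). Its distal end closes a retained-intron transcript with no poly(A) signal and is followed by 18 A in 20 bases, and whether reads there came from priming on those A was not tested. This end (27253684 on hg38) is also the 3′ boundary of the annotated gene, so reads there need not come from that transcript. SLC30A7, a zinc carrier of the Golgi, held 3.52, 7.22, 6.88 and 16.7 reads at its most distal site in the order control, HNRNPC KD, PABPC4 KD and double KD, and 7.15, 6.98, 4.50 and 6.07 at its middle site. The logAPAR of this pair was −1.72 ± 0.805 in double KD and did not pass p 0.01. The control total of the gene was 13.2 reads, so this gene was thinly covered.

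The remaining carriers had wide errors. SLC15A4, a proton-coupled carrier of histidine and small peptides, had 0.96 ± 0.470 in double KD. SLC20A2, a sodium-phosphate cotransporter, had −2.63 ± 1.37, SLC46A1, the proton-coupled folate carrier, −1.37 ± 0.974, and SLC48A1, a heme carrier, −0.22 ± 0.357. None of these passed p 0.01. The nucleotide-sugar carrier role was set by gene symbol and includes genes without an established substrate. Its genes other than SLC35E1 had no pair past p 0.01, and SLC35C2 had −1.31 ± 0.520 in HNRNPC KD (p = 0.0116 in the authors' test). Cation-chloride cotransporters had 1 gene, SLC12A8, listed in HNRNPC KD only, at −1.33 ± 1.53.

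The ion pumps held 0 pairs past p 0.01. ATP2B1, a calcium pump of the plasma membrane, had 0.44 ± 0.360 in double KD, between its sites at positions 89984194 and 89983556 of chromosome 12 (unnamed build). These held 16.4 and 34.7 reads in control and 43.3 and 59.3 in double KD.

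In the V-ATPase, the proton pump that acidifies endosomes and lysosomes, the gene of smallest p was ATP6V1C1, with 0.74 ± 0.476 in double KD. Flippases, which move phospholipids between membrane leaflets, were led by ATP8B2 at −1.13 ± 0.658. ATP13A3 was just outside the threshold in PABPC4 KD, at −1.78 ± 0.703 (p = 0.0114 in the authors' test). Of the ABC transporters, ABCC3 had −2.47 ± 1.23 in HNRNPC KD, 0.52 ± 0.432 with the PABPC4 guide alone and −1.30 ± 0.727 in double KD, and none of these passed p 0.01. Among the members that are no carriers, ABCF1 had 0.40 ± 0.412 and SLC7A6OS 0.08 ± 0.327 in double KD.

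**Figure D5:**
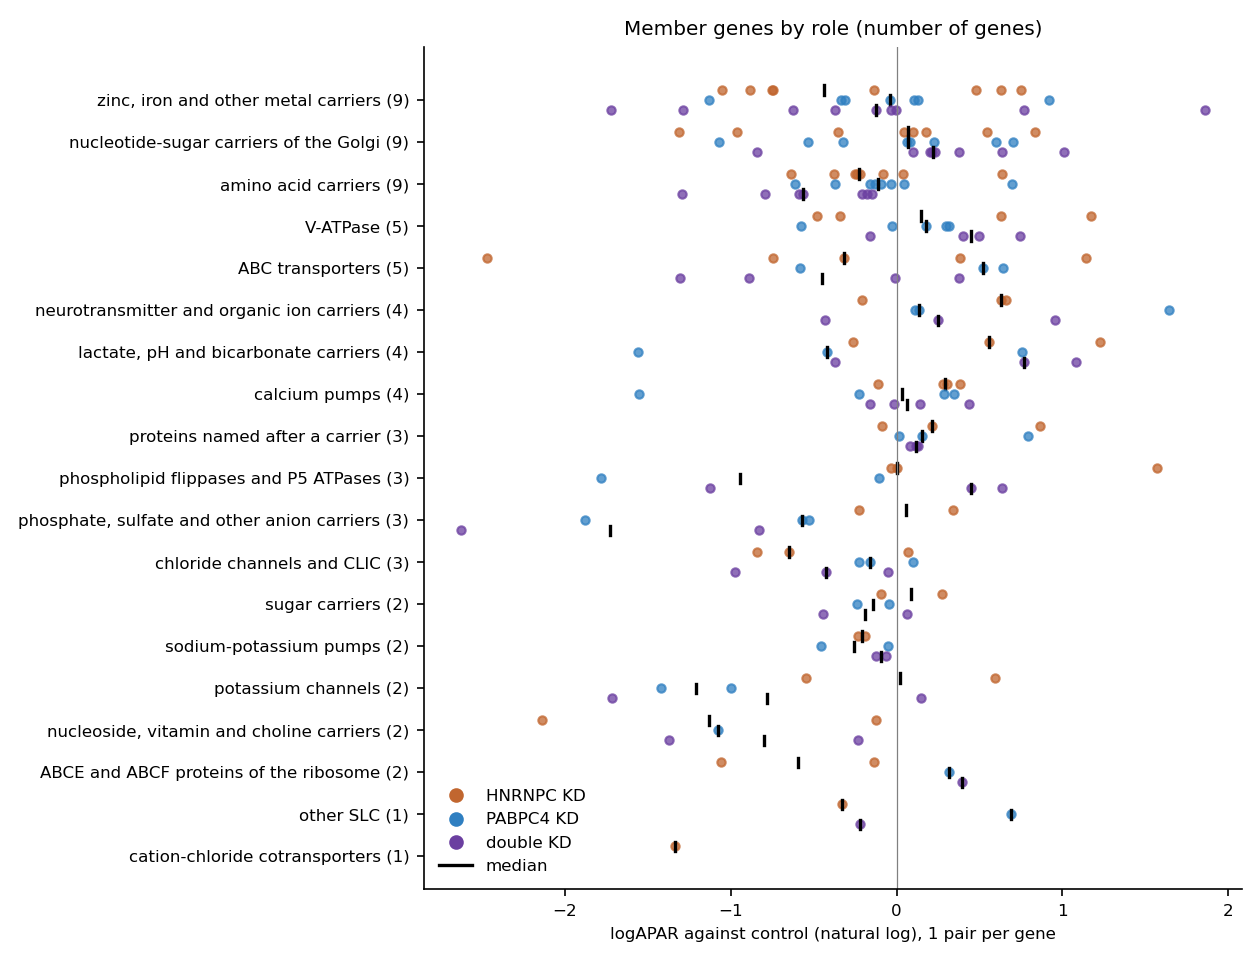
logAPAR against control (x axis), 1 pair per gene (that of smallest standard error), for the member genes by role, with the number of genes in brackets and black ticks for medians. Points are genes in the 3 tables, and most roles spread to both sides of 0. In double KD all 7 amino acid carriers, the 3 genes of the chloride channel group and 7 of 9 metal carriers lie below it. There 7 of 8 genes of the nucleotide-sugar carrier role, set by gene symbol, lie above it. SLC35E1 is among them by its pair of smallest standard error, while its called pairs in double KD lie below 0.

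Over all member genes the median logAPAR, with 1 pair per gene, was −0.10 in HNRNPC KD (66 genes), −0.05 with the PABPC4 guide alone (61 genes) and −0.05 in double KD (63 genes). Over all genes it was 0.01, −0.0013 and −0.0060. Members below 0 made up 56.1%, 55.7% and 57.1%, against 49.3%, 50.2% and 50.2% of all genes. The quartiles of the members, −0.37 and 0.38 in HNRNPC KD, lay on both sides of 0, so the medians are small beside the spread among genes.

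The reconstructed reads also give the total of a gene over its sites. ATP2B1 held 59.6 normalised reads in control and 111, 91.5 and 122 in HNRNPC KD, PABPC4 KD and double KD, and relative to the median of the 681 genes its total was 2.01, 1.52 and 1.90 times control. SLC7A1 held 91.4 in control and 122, 79.0 and 165 (1.44, 0.855 and 1.68 times), and SLC38A1 203 in control and 271, 194 and 288 (1.44, 0.947 and 1.32 times). The totals of SLC7A1 and SLC38A1 lay above control in the groups with the HNRNPC guide and below it in PABPC4 KD. SLC38A2, the remaining amino acid carrier with solved reads, went the opposite way in each KD group. It held 395 in control and 346, 438 and 355 (0.834 times in double KD). Its total thus lay below control in the groups with the HNRNPC guide and above it in PABPC4 KD, also relative to the median. The amino acid carriers therefore had no shared direction. These totals have no replicate error and were not tested, and they count the listed sites alone.

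The sites themselves were examined for what they share. Of 175 member sites 85 are named by position, in a build the tables do not name, and 90 by transcript, of which 81 matched Gencode release 44 with the same version. On hg38 only 4 of the 85 positions lay inside their gene, and 522 of 4195 over all genes. The positions were therefore not read as hg38 positions. An AATAAA or ATTAAA in the last 40 bases was found at 80.2% of the member transcript ends, against 66.4% of all 4220 matched ends, with its first base a median of 24 bases before the end. AATAAA alone was found at 69.1% against 53.4%. A run of at least 5 T in the last 100 bases of the transcript strand (U in the RNA), the kind of run HNRNPC binds, was found at 40.7% of member ends and 34.5% of all ends. A-rich sequence, meaning a run of at least 6 A or at least 12 A in all, followed 4.94% of member ends within 20 bases, against 9.55% of all. It lay within the last 20 bases of 18.5% of member ends, against 16.6% of all, and on either side of 21.0%, against 23.9%. A share of 81.5% of member ends belonged to protein-coding transcripts, against 75.5%.

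Of 20 member pairs with both ends placed on hg38, 15 had overlapping last exons (75%, against 63.1% of all such pairs). The median distance over the 20 placed pairs was 1504 nt, against 2860 nt over all placed pairs. A T run is absent from the last 100 bases of the SLC35E1 ends, where the longest runs were 3, 4 and 4 T, and the SLC4A7 downstream end had a run of 7. These are descriptions of the annotated ends, and ends named by position were not read.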

How the data were processed

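Per the labels and the study's methods, 3′ ends of 8 samples were sequenced with QuantSeq REV, counted by the authors with Salmon 0.14.1 on unique Gencode 3′ ends, normalised and compared with APAlog, replicates together. The submitters' processing notes also name hg38 and UMI-tools, with no role given. Most sites named by position do not lie inside their gene on hg38. The authors' deposited values are logAPAR on a natural log scale, a p-value and a q-value per pair. They are the authors' own comparisons, and 0 columns hold values per sample. Recomputed Benjamini-Hochberg values returned the deposited q-values.

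From these were computed Wald standard errors, differences between tables, normalised reads per site, whole reads per library, and sequence features on hg38, in Python 3.11.15 with scipy 1.17.1. The solver and the difference test were tested on simulated data. Named genes were those with a pair past p 0.01 in a table or difference, the 8 most precise of double KD, and the gene of smallest p of each role there, and others named in the text were chosen after their values were seen. Members, roles and lists were chosen with earlier results of these data known. The role of proteins named after a carrier, the whole reads per library, the A-rich measures and the error without the control's share were added after seeing the files. The study's methods give biological duplicates for its sequencing experiments, and p-values here cover counting error only, without molecular identifiers described for these libraries. An item that the rule names and the sequence of an end are not reported here.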

Additional observations from a re-analysis of the deposited data

Results flagged for a closer look

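A pair of departures of double KD from the added single KD values passed p 0.01 in a Wald test of the difference under some errors and not others. With an assumed share of the control removed from the error, 2 of 95 member pairs passed (2.11%, against 2.28% of all pairs). With reconstructed reads 1 of 54 passed (1.85%, against 2.38%), and with the upper-bound error 0 of 95 (against 1.04%). These shares were no higher than those of all pairs. At the upstream and middle ends of SLC35E1 the departure was −0.673 (natural log), with single KD values of 0.54 and 0.23 and a double KD value of 0.10. With an error taken from reconstructed reads it passed p 0.01 (95% interval −1.16 to −0.18). It also passed with an assumed share of the control removed from the error, and missed p 0.01 with the upper-bound error (−1.25 to −0.09). At SLC2A3 the departure was also −0.673, with 0.27, −0.05 and −0.45 in the 3 tables. It passed with the assumed share of the control removed and missed p 0.01 with the upper-bound error (−1.25 to −0.10). The control reads of SLC2A3 cannot be solved, so this share could not be checked. Neither passed an adjusted p of 0.05 over all pairs where that was computed, with the upper-bound error at both and with the reconstructed reads at SLC35E1.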

How the results depend on the processing

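No paired analysis was possible because values per sample are missing from the tables used, so that no replicate could be left out either. The medians over member genes kept their sign under every alternative tried. Reversal was not assessed for the other results. Without ABCE1, ABCF1 and the proteins named after a carrier the medians were −0.11, −0.10 and −0.12. At an adjusted p under 0.05, and equally at p 0.001, the counts of member pairs were 0 in HNRNPC KD, 0 in PABPC4 KD, 1 in double KD and 0 for double KD minus HNRNPC KD. Taking each gene's outermost sites gave 0 of 66, 1 of 61 and 2 of 63 pairs in the 3 tables (all genes 2.33%, 1.01% and 4.10%), and 1 pair per gene gave 1 of 66, 1 of 61 and 2 of 63 (all genes 2.79%, 1.13% and 6.05%). With errors from reconstructed reads, double KD minus HNRNPC KD gave 0, since SLC2A3 has too few sites to be solved, and the departure from the sum gave 1 of 54 (all pairs 2.38%). Removing an assumed share of the control from the error was an alternative chosen after seeing the data. With it, double KD minus PABPC4 KD gave 2 of 95 (ATP13A3 and CLCN7, all pairs 4.94%) and the departure 2 of 95 (all pairs 2.28%). AATAAA alone was found at 69.1% of member ends, and a run of at least 8 T at 3.70% (3.06% of all ends). At the median error a change of 4.50-fold to 6.32-fold was needed.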
